A study of Mus musculus with 4 samples.

Results

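The cells described here were a small group of antral granulosa cells (GCs) picked from single-cell RNA profiles of the mouse ovary by a rule on their own transcripts. A cell was kept when it held at least 10 UMIs of Inhba per 10000 UMIs, no UMI of Lhcgr, and at least 2 of the 5 markers Kcne2, Grem1, Zpld1, Fetub and Jakmip3. A UMI, or unique molecular identifier, marks 1 captured RNA molecule. Cells with 2 or more UMIs of the chemokines Cxcl1 and Cxcl2, with 2 or more of the cycling genes Top2a, Mki67, Ube2c, Prc1 and Aurkb, or with 2 or more of Cox4i2, Ndufa4l2 and Slc16a3 were left out. Of 47782 cells that passed the quality filters, 63 met the rule, and they are called the selected cells here. All values of these 17 genes in the selected cells were constrained by the choice of the cells and are given as a description.

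The study compared ovaries of 8-week-old female mice from 1 litter. Fosl2F/F mice, per the protocol and methods, carried Fosl2flox/flox alleles, with LoxP sites around exons 2 to 4 of Fosl2, and no Cre, while the sample labels call these controls Ctrl and WT. Fosl2cKO mice carried the same alleles with Cyp19a1-Cre, in which the aromatase promoter drives Cre in GCs, so the deletion is limited to cells in which that promoter has been active. Per the study, vaginal smears were used to stage the mice, and those that were sequenced showed estrus cytology. Whole ovaries were dissociated into 2 Fosl2F/F and 2 Fosl2cKO libraries, and nothing in the labels says which mouse gave which library, so p-values measure only the spread between these libraries.

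Antral GCs line the fluid-filled cavity of a growing follicle. Under follicle-stimulating hormone (FSH) they turn androgen into estradiol and secrete inhibin and activin, of which Inhba encodes a subunit. Mural GCs of large antral follicles then gain the luteinizing hormone (LH) receptor, Lhcgr, which prepares them for ovulation and for progesterone synthesis. Until the LH surge, mural GCs also release C-type natriuretic peptide, the product of Nppc, whose receptor Npr2 on cumulus cells makes the cyclic GMP that holds the oocyte in meiotic arrest. Grem1 encodes gremlin, a secreted antagonist of bone morphogenetic proteins (BMPs). Kcne2 encodes a beta subunit of voltage-gated potassium channels.

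The promoters of Kcne2, Grem1 and Nppc are shown because these genes name the cells, and because Fosl2 encodes an AP-1 subunit whose motif can be looked for in them. Each is the 250 bases before the first start site in RefSeq (GRCm38.p6), written 5′ to 3′ on the strand of the gene. Capitals mark GGGCGG (a GC box), TGACG (part of the cyclic AMP response element), TCAAGG (the core that Nr5a receptors bind) and TATAAA, each searched on both strands except TATAAA, so that CCGCCC and CGTCA are the same motifs read on the other strand. Kcne2 lies at chr16:92292389-92298129 on the plus strand, and its promoter at chr16:92292139-92292388. Grem1 lies at chr2:113746164-113758646 on the minus strand, and its promoter at chr2:113758649-113758898. Nppc lies at chr1:86666291-86670571 on the minus strand, and its promoter at chr1:86670574-86670823.
Kcne2: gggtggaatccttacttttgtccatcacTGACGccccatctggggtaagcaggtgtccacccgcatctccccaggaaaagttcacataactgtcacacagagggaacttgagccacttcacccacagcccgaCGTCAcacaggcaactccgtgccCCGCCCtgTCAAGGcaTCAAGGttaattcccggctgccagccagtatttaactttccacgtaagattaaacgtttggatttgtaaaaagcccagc
Grem1: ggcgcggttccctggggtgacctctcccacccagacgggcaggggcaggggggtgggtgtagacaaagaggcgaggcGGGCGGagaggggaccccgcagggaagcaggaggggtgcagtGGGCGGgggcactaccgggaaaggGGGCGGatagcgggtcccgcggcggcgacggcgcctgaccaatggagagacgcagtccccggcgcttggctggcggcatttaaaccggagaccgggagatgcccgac
Nppc: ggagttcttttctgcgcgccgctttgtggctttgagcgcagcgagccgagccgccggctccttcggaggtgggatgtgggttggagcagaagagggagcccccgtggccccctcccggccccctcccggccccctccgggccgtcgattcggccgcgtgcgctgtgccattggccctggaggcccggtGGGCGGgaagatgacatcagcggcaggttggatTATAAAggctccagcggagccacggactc
The Kcne2 promoter held TGACG on both strands, TCAAGG at 2 places and a GC box as CCGCCC. The Grem1 promoter held 3 GGGCGG motifs, and the Nppc promoter held GGGCGG and TATAAA. The AP-1 motif TGANTCA was absent from all 3 of these windows, and among the 5 markers of the rule the Zpld1 promoter held it once, as TGATTCA, from -96 to -90 before the start site. Among 32851 mouse promoters of the same length, 6.75% held TGANTCA, 17.8% held TGACG, 12.5% held TCAAGG, 32.7% held GGGCGG and 7.59% held TATAAA.

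The 4 libraries held 123493207 and 148836173 UMIs in Fosl2F/F and 124979060 and 120327227 in Fosl2cKO, over 8654 to 28155 barcodes. After filtering, Fosl2F/F 1 and Fosl2F/F 2 kept 8780 and 24320 cells, and Fosl2cKO 1 and Fosl2cKO 2 kept 7175 and 7507. Fosl2F/F 2 stood apart, with the most cells and the lowest median of 3970 UMIs per cell, against 11380 to 12885 in the other 3. Between 12 and 49 barcodes were shared by any pair of libraries, and 0 of them belonged to a selected cell.

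The selected cells came mostly from Fosl2F/F 1. It gave 45 of them and Fosl2F/F 2 gave 13, whereas the libraries labelled Fosl2cKO gave 1 and 4. Summed over the selected cells, these libraries held 405011, 70167, 13643 and 60820 UMIs, so the single cell of Fosl2cKO 1 is 1 cell at high depth and not an estimate of a population. In that cell 1 UMI was worth 73.3 counts per 1000000 UMIs (CPM), and in the 4 cells of Fosl2cKO 2 it was worth 16.4. The median depth of the selected cells was 8992, 4746, 13643 and 14653 UMIs in Fosl2F/F 1, Fosl2F/F 2, Fosl2cKO 1 and Fosl2cKO 2. The doublet caller marked 8 of the 45 and 2 of the 13 Fosl2F/F cells, that is 17.8% and 15.4%, against 7.03% and 19.5% of all cells of those libraries, and none of the 5 Fosl2cKO cells. The part of doublets in the results was not tested beyond repeating the counts without them.

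The order of the steps shows where cells were lost. The Inhba threshold left 7274 of 47782 cells, the absence of Lhcgr left 3363, and 2 or more markers left 811. Of these 811 cells, which are called the wider set, only 251 passed the chemokine limit, 112 the cycling limit as well and 63 the last exclusion. Counted over the wider set of each library, the chemokine limit removed 66.5% and 68.2% of Fosl2F/F cells, against 89.6% and 70.4% of Fosl2cKO cells. At least 2 cycling genes were present in 54.1%, 69.7%, 70.2% and 67.9% of the wider set, and at least 2 of Cox4i2, Ndufa4l2 and Slc16a3 in 65.2%, 18.2%, 41.8% and 42.0%, which differed most between the Fosl2F/F libraries. The selected cells are thus the part of it with few transcripts of all 3 kinds. These limits are absolute counts, and the selected cells were also shallower. Their median depth was 8992, 4746, 13643 and 14653 UMIs, against 15902, 8447, 22138 and 22984 in the wider set. The part of depth in the exclusions was not tested.

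**Figure D1:**
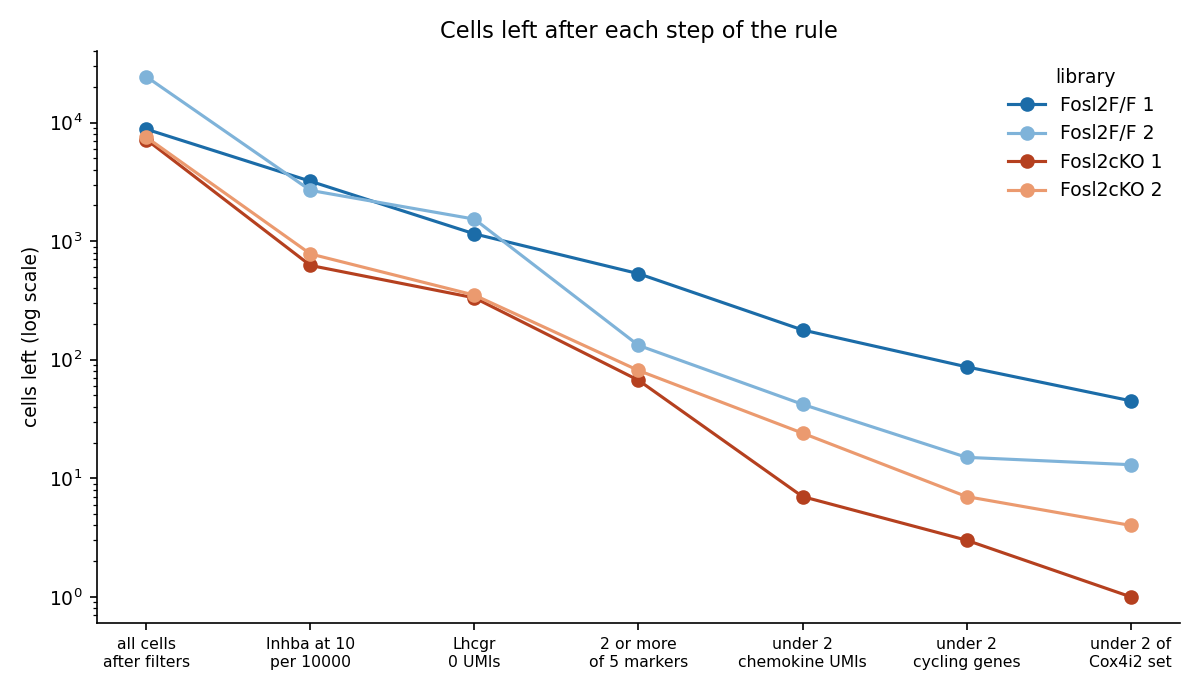
Cells left (y axis, log scale) after each step of the rule (x axis) in each of the 4 libraries, 1 line per library. The lines of the Fosl2cKO libraries fall from 623 and 779 Inhba-high cells to 1 and 4 selected cells, and those of the Fosl2F/F libraries from 3196 and 2676 to 45 and 13.

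As a share of Inhba-high cells, the selected cells made up 1.41% in Fosl2F/F 1 (95% Wilson interval 1.05 to 1.88) and 0.486% in Fosl2F/F 2 (0.284 to 0.829). They made up 0.161% in Fosl2cKO 1 (0.0283 to 0.904) and 0.514% in Fosl2cKO 2 (0.200 to 1.31). The ranges of the groups overlapped, since Fosl2cKO 2 lay above Fosl2F/F 2. The means were 0.947% ± 0.652 in Fosl2F/F and 0.337% ± 0.25 in Fosl2cKO (SD, n = 2 each), and the difference of -0.610 percentage points had an exact two-sided permutation p of 0.667. Of all cells, the shares were 0.513%, 0.0535%, 0.0139% and 0.0533%. Fosl2F/F 1 stood above the other 3 libraries, and Fosl2F/F 2 lay at almost the value of Fosl2cKO 2. The difference of -0.249 points had an exact permutation p of 0.333, the smallest that 2 against 2 libraries can give. Without Fosl2F/F 1 that difference was -0.0198 points. The wider set made up 16.6%, 4.93%, 10.8% and 10.4% of Inhba-high cells, with both Fosl2cKO libraries between the Fosl2F/F libraries (difference -0.197 points, exact permutation p of 1). The intervals cover counting error only.

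Most selected cells passed the marker step narrowly. Exactly 2 of the 5 markers were detected in 44 cells, 3 in 11, 4 in 7 and all 5 in 1. Grem1 was detected in 51 of the 63 cells, Jakmip3 (a Janus kinase and microtubule interacting protein) in 31, Kcne2 in 29, Fetub (a fetuin) in 23 and Zpld1 (a zona pellucida-like domain protein) in 20. Kcne2 and Grem1 were detected together in 22 cells, Grem1 without Kcne2 in 29, Kcne2 without Grem1 in 7, and neither in 5. The name Kcne2 Grem1 cells thus holds for 22 of 63 cells at this depth, and the most frequent pair was Grem1 with Jakmip3, in 14 cells that held no other marker. The single cell of Fosl2cKO 1 held Kcne2 and Jakmip3 and no UMI of Grem1. The cells of Fosl2cKO 2 held Fetub with Jakmip3, Kcne2 with Fetub, Grem1 with Jakmip3, and Grem1 with Zpld1 and Fetub. No Fosl2cKO cell thus held both Kcne2 and Grem1, and all that did came from the Fosl2F/F libraries.

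Cells just outside the marker step had fewer UMIs and less Nppc than those just inside it in both Fosl2F/F libraries. In Fosl2F/F 1, the 28 cells with exactly 2 markers had a median of 7904 UMIs and 349 CPM of Nppc, the 74 otherwise equal cells with 1 marker 4760 UMIs and 209 CPM, and the 120 cells with none 1748 UMIs and 192 CPM. In Fosl2F/F 2, the values were 4932 UMIs and 341 CPM with 2 markers in 12 cells, 3678 and 133 with 1 marker in 70 cells, and 3153 and 122 with none in 254 cells. Depth per cell was thus higher where more markers were detected in these libraries. With the rule applied to counts thinned to 3000 UMIs, which leaves out shallower cells, 133, 11, 9 and 7 cells met it in the 4 libraries. Unthinned, 45, 13, 1 and 4 cells had met it. The number of selected cells thus changed with depth, and the part of depth in each step was not tested. Fosl2cKO 1 did not show this order, with 13643 UMIs and 147 CPM of Nppc in the cell with 2 markers. Its 4 cells with 1 marker had 14522 and 242, and its 25 cells with none 9456 and 197. In Fosl2cKO 2 depth followed the order and Nppc did not. The values were 14684 and 167 with 2 markers in 3 cells, 14181 and 185 with 1 marker in 24 cells, and 11610 and 115 with none in 35 cells. At the Lhcgr step, 39 cells of Fosl2F/F 1 met every other condition with exactly 1 UMI of Lhcgr, and they held 539 CPM of Nppc and 1620 CPM of Nap1l5. The 6 such cells of Fosl2F/F 2 held 102 and 2718 CPM, from 3 and 80 UMIs, and the 7 of Fosl2cKO 2 held 146 and 1477 CPM, while Fosl2cKO 1 had no such cell. Against the selected cells of the same library, Nppc was thus higher and Nap1l5 lower in Fosl2F/F 1, and the order was the opposite in Fosl2F/F 2.

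Genes of GCs were detected in most of the selected cells. Inha, the inhibin alpha subunit, was detected in all 63, Nap1l5 in 55, the FSH receptor Fshr in 53, Nppc in 50 and aromatase, Cyp19a1, in 42. Macrophages, which should lack these genes, were gated as cells below the Inhba threshold with 2 or more of C1qa, C1qb, Csf1r and Adgre1. In them Inha stood at 489, 524, 681 and 621 CPM against 13296, 8907, 11141 and 7876 in the selected cells. After each cell was thinned to 3000 UMIs, Fshr was detected in 72.2% of the selected cells and 5.54% of macrophages, and Cyp19a1 in 40.7% and 0.924%. The oocyte gene Zp3 was detected in none. Per 10000 UMIs of a cell, the lowest, median and highest values over the 63 cells were 19.3, 113 and 348 for Inha. They were 0, 18.5 and 74.3 for Nap1l5, a nucleosome assembly protein-like gene that is active on the paternal allele. They were 0, 2.66 and 24.6 for Nppc, 0, 6.11 and 27.7 for Fshr, and 0, 1.49 and 18.0 for Cyp19a1. Of these genes, which the rule did not use, only Inha was present in every cell.

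**Figure D2:**
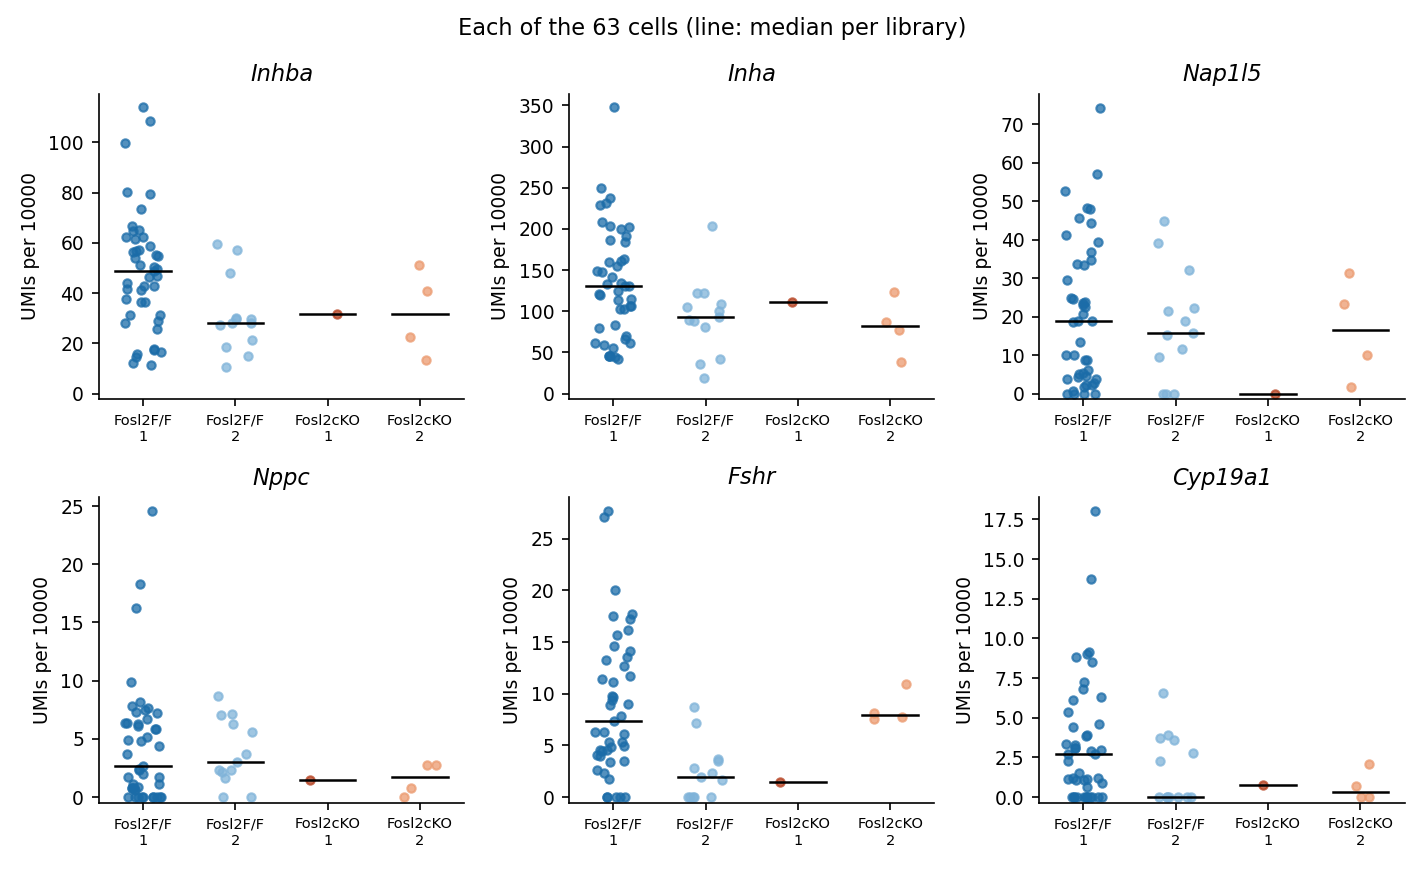
UMIs per 10000 UMIs of a cell (y axis, linear) for 6 genes, 1 point per selected cell, with the library on the x axis and a line at the median of the library. Inhba was used to choose the cells, and in Fosl2F/F 2 the median of Cyp19a1 was 0 while that of Nppc was 2.97.

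Markers of macrophages, pericytes and surface epithelium were low, while the endothelial, cumulus and atretic sums exceeded those of Lhcgr-positive GCs in some or all libraries. The summed level of 9 theca and stroma genes was 98.8, 185, 0 and 49.3 CPM in the selected cells of Fosl2F/F 1, Fosl2F/F 2, Fosl2cKO 1 and Fosl2cKO 2. That of 9 macrophage and lymphocyte genes was 24.7, 28.5, 0 and 16.4 CPM, against 14152, 8762, 7249 and 11410 CPM in macrophages. The 6 endothelial genes summed to 54.3, 71.3, 147 and 16.4 CPM, against 23.8, 26.7, 22.5 and 11.6 CPM in Lhcgr-positive GCs of the same libraries, and the value of Fosl2cKO 2 was 1 UMI. Pecam1 accounted for 20 UMIs of Fosl2F/F 1, 2 of Fosl2F/F 2 and 1 of Fosl2cKO 1. Of 7 oocyte genes, Zp1, Zp2 and Zp3 had no UMI, and the sum was 17.3, 99.8, 0 and 16.4 CPM. Pericyte genes summed to 24.7, 28.5, 0 and 0 CPM, and surface epithelium genes to 4.94, 14.3, 0 and 0 CPM. The 6 cumulus genes summed to 79.0, 470.3, 73.3 and 16.4 CPM, against 106.0, 135, 67.6 and 73.0 in Lhcgr-positive GCs and 2185 to 2558 in cumulus-like cells. The sum of Fosl2F/F 2 rested on 33 UMIs, and single cells held 7 of the 8 UMIs of Gatm there, 7 of the 8 of Col18a1 and all 3 of Cdh12. The 7 genes of atretic GCs summed to 242, 299, 73.3 and 904 CPM, against 192, 236, 158 and 244 in Lhcgr-positive GCs. The part of these cells in the results was not tested.

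To place the selected cells, 4 other classes were gated in the same libraries with the same chemokine and cycling limits. Lhcgr-positive GCs (720 cells) were Inhba-high with 2 or more UMIs of Lhcgr and under 2 of Cox4i2, Ndufa4l2 and Slc16a3. Glycolytic GCs (236 cells) were Inhba-high with 2 or more of Cox4i2, Ndufa4l2 and Slc16a3, with no limit on Lhcgr. In Fosl2F/F 1, Fosl2F/F 2, Fosl2cKO 1 and Fosl2cKO 2, Lhcgr-positive GCs numbered 553, 105, 7 and 55, and glycolytic GCs 186, 33, 4 and 13. Ratios in Fosl2cKO 1 thus set 1 selected cell against 7 or 4 cells of these classes. Marker-poor GCs (606 cells) met the rule but held fewer than 2 of the 5 markers. Cumulus-like cells (2652 cells) were below the Inhba threshold and held 3 or more of Col18a1, Gatm, Cdh12, Itga6 and Pcsk6. They also held under 2 of Cox4i2, Ndufa4l2 and Slc16a3, and under 2 UMIs of Col1a2, Pecam1 and Ptprc together. Since the classes were gated on transcripts of the same cells, ratios between them are descriptions with no test. A gene was counted when it was at least 2-fold apart in the same direction in every library compared, with a mean of at least 20 CPM in one of the classes. A library without a UMI in the selected cells could count as lower but not as higher. The balance of higher and lower genes, over all 4 libraries or over the Fosl2F/F libraries alone, is therefore not read as a result.

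Against Lhcgr-positive GCs of the same library, few genes stood apart in all 4 libraries. Of 7732 genes, 8 were at least 2-fold higher in the selected cells (0.103%) and 30 were at least 2-fold lower (0.388%). Restricted to the 2 Fosl2F/F libraries, a choice made after seeing how few Fosl2cKO cells there were, 108 of 7586 genes were higher (1.42%) and 144 lower (1.90%). In the selected cells of Fosl2F/F 2, 1 UMI was worth 14.25 CPM, so genes near 20 CPM rest on very few UMIs there.

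The genes lower in the selected cells included Cyp11a1, Fdx1, Prlr and Timp3. Cyp11a1, the enzyme that opens progesterone synthesis from cholesterol, stood at 294, 399, 147 and 32.9 CPM in the selected cells of Fosl2F/F 1, Fosl2F/F 2, Fosl2cKO 1 and Fosl2cKO 2, against 1064, 1534, 507 and 172 CPM in Lhcgr-positive GCs. It was lower in all 4 libraries. Fdx1, the ferredoxin that passes electrons to that enzyme, stood at 454, 442, 0 and 164 CPM against 1477, 1256, 845 and 389. Prlr, the prolactin receptor, stood at 484, 385, 147 and 148 CPM against 1393, 912, 991 and 560. Both were lower in every library by more than 2-fold. Timp3, an inhibitor of matrix metalloproteinases, stood at 133, 114, 73.3 and 0 CPM against 322, 276, 574 and 122. Also among the 12 genes with the lowest ratios were the theca enzyme Cyp17a1 at 19.8, 0, 0 and 0 CPM against 117, 107, 33.8 and 11.6, and Zfyve1, Naaladl2, Proser2, Hace1, Pcdh9 and Spock2. These last genes rested on 3, 8, 2, 2, 17 and 5 UMIs in the 63 cells, and a library without a UMI counted as lower, as the single Fosl2cKO 1 cell was for all 6.

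Markers of theca and stroma were lower as well. Of 7 such genes at 20 CPM, Cyp17a1 among them, 0 were higher and 6 lower in both Fosl2F/F libraries, with a median log2 ratio of -1.15, and 2 of them were at least 2-fold lower. Of all 7586 genes, 2098 were higher and 2092 lower in both, 144 were at least 2-fold lower, and the median was 0.07. The summed level of the theca and stroma list was 98.8, 185, 0 and 49.3 CPM in the selected cells against 281, 540, 101 and 192 CPM in Lhcgr-positive GCs. The part of these markers in the lower Cyp11a1 was not tested.

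Against Lhcgr-positive GCs, the wider list of LH response and luteinization genes leaned the same way without being uniform. In the Fosl2F/F libraries, 12 of its genes other than Lhcgr reached 20 CPM, of which 0 were higher in both, 8 were lower in both, and 3 were at least 2-fold lower, with a median log2 ratio of -1.05. Over all 7586 genes, 2098 were higher and 2092 lower in both, 108 were at least 2-fold higher and 144 at least 2-fold lower, and the median was 0.07. Hsd3b1, the next enzyme of progesterone synthesis, was not among the genes that stood apart, at 2676, 1311, 2419 and 3206 CPM against 2694, 2333, 2309 and 2839. The ranges of the 2 classes overlapped for Scarb1, the receptor that takes up lipoprotein cholesterol, at 333, 242, 660 and 263 CPM against 364, 485, 383 and 306. Star, which moves cholesterol into mitochondria, was low in both, at 9.88, 42.8, 0 and 0 CPM against 13.9, 108, 11.3 and 6.95. Rhox8, a homeobox gene of mural GCs, stood at 14.8, 14.3, 0 and 16.4 CPM against 167, 24.9, 22.5 and 24.3. Of the genes that the LH surge induces, Pgr, Areg, Ereg, Ptgs2, Has2 and Edn2 had no UMI in the 63 cells, whereas the protease Adamts1 had 15, 0, 0 and 2 UMIs, the transcription factor Runx1 had 38, 3, 0 and 1, and the growth factor Btc had 1, 0, 1 and 0. The transcription factor Cebpb had 3 UMIs in all, and 17 of the 20 UMIs of Tnfaip6 lay in 1 cell. The lean of this list depended on the class compared. Against glycolytic GCs, 5 of 12 genes were higher and 2 lower in both Fosl2F/F libraries (median 0.30). Of all 7598 genes there, 1967 were higher and 2260 lower (median 0.05). Against marker-poor GCs, 0 of 12 were higher and 6 lower (median -0.39). Of all 7620 genes there, 1950 were higher and 2077 lower (median 0.07).

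The FSH and estrogen programme did not lean lower against Lhcgr-positive GCs as the LH list did. Of 17 genes at 20 CPM, 6 were higher and 7 lower in both Fosl2F/F libraries, with a median log2 ratio of 0.00, beside 2098 higher and 2092 lower of all 7586 genes and a median of 0.07. Fshr stood at 919, 214, 147 and 855 CPM in the selected cells against 866, 183, 45.1 and 804 in Lhcgr-positive GCs, so the libraries differed far more than the classes. Inha stood at 13296, 8907, 11141 and 7876 CPM against 12873, 7708, 6781 and 6945. Hsd17b1, which makes estradiol from estrone, stood at 2239, 1382, 2052 and 1776 CPM against 2032, 1196, 1464 and 1551. Both lay above the Lhcgr-positive level in each library, by less than 2-fold. Cyp19a1 was lower in each library, at 296, 143, 73.3 and 65.8 CPM against 593, 172, 146 and 197, and its promoter also drives the Cre. In both Fosl2F/F libraries, 1 gene of the list was at least 2-fold higher and 1 at least 2-fold lower. Ccnd2, the cyclin that FSH induces, stood at 773, 912, 806 and 428 CPM against 266, 359, 146 and 503, higher in 3 of 4 libraries. Pappa, the protease that releases IGF from its binding proteins, stood at 27.2, 99.8, 0 and 32.9 CPM against 96.3, 329, 146 and 41.7.

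Genes of DNA replication were higher in the selected cells of the Fosl2F/F libraries than in Lhcgr-positive GCs, but not than in every like class. Of 11 S phase genes at 20 CPM, 9 were higher in both Fosl2F/F libraries, 0 were lower in both, and 4 were at least 2-fold higher, with a median log2 ratio of 1.05. Over all 7586 genes, 2098 were higher in both, 2092 lower in both and 108 at least 2-fold higher. The helicase subunits Mcm3, Mcm5 and Mcm7 and the replication factor Gins2 were those 4. Mcm3 stood at 79.0, 114, 73.3 and 82.2 CPM against 32.5, 49.8, 33.8 and 78.8 in Lhcgr-positive GCs. The summed S phase level was 736 and 812 CPM against 448 and 505 in Fosl2F/F, and 440 and 428 CPM against 462 and 673 in Fosl2cKO, where the order was the opposite. Against glycolytic GCs the S phase list ran the other way, with 2 of 13 genes higher and 10 lower in both Fosl2F/F libraries and a median of -0.60, beside 1967 higher and 2260 lower of all 7598 genes and a median of 0.05. Against marker-poor GCs, 3 of 12 genes were higher and 1 lower in both (median 0.27). Of all 7620 genes there, 1950 were higher and 2077 lower (median 0.07). The summed S phase level in marker-poor GCs was 558, 889, 583 and 851 CPM, above the selected cells in each library but Fosl2F/F 1.

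Nppc did not separate the selected cells from Lhcgr-positive GCs. It stood at 437, 342, 147 and 148 CPM, from 177, 24, 2 and 9 UMIs, against 420, 181, 146 and 177 CPM, so that only Fosl2F/F 2 showed a gap. After each cell was thinned to 3000 UMIs, which left out 9 of the 63 cells, Nppc was detected in 55.6% of the selected cells (95% Wilson interval 42.4 to 68.0) and in 55.6% of Lhcgr-positive GCs. The share was 33.8% in glycolytic GCs, 27.3% in marker-poor GCs, 7.15% in cumulus-like cells and 2.18% in macrophages, which should lack the gene. The classes draw on the pooled libraries unequally, and the interval covers counting error only. In Fosl2F/F 1, Nppc was detected in 58.97% of the selected cells, 58.85% of Lhcgr-positive, 39.0% of glycolytic and 34.9% of marker-poor GCs. In Fosl2F/F 2 the shares were 50.0%, 44.7%, 21.9% and 20.2%. Unthinned, Nppc was detected in 50 of the 63 cells. Npr2, which encodes the Nppc receptor, was low in both antral classes, at 24.7, 14.3, 0 and 49.3 CPM against 28.8, 12.4, 11.3 and 29.0.

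Nap1l5 was higher in the selected cells in 3 libraries and absent in the single cell of Fosl2cKO 1. It stood at 2368, 1910, 0 and 1578 CPM against 1290, 1299, 935 and 1027 in Lhcgr-positive GCs. Thinned to 3000 UMIs, 83.3% of the selected cells, 86.1% of glycolytic GCs, 84.2% of the wider set, 69.2% of marker-poor GCs, 69.1% of Lhcgr-positive GCs and 9.31% of cumulus-like cells held it, against 7.56% of macrophages. These shares are pooled over libraries that the classes draw on unequally. In Fosl2F/F 1 they were 84.6% of the selected cells, 87.4% of glycolytic, 57.0% of marker-poor and 68.7% of Lhcgr-positive GCs, and in Fosl2F/F 2 they were 90.0%, 78.1%, 76.0% and 81.2%. The order of the selected cells and glycolytic GCs thus differed between these libraries. The cell of Fosl2cKO 1 lacked both Grem1 and Nap1l5 at 13643 UMIs.

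The genes that chose the cells had the following levels. Kcne2 stood at 116, 99.8, 73.3 and 16.4 CPM in the selected cells and at 21.6, 21.3, 11.3 and 27.8 CPM in Lhcgr-positive GCs. Grem1 stood at 380, 157, 0 and 65.8 CPM against 200, 37.3, 11.3 and 63.7. In Fosl2cKO 2 neither was above the Lhcgr-positive level by 2-fold, although the rule asked for 2 of 5 markers. Inhba stood at 4975, 3064, 3152 and 3108 CPM against 5870, 3343, 2275 and 3822. After thinning, Kcne2 was detected in 22.2% of the selected cells, 12.1% of glycolytic GCs, 4.35% of Lhcgr-positive GCs and 0.0470% of cumulus-like cells, and Grem1 in 55.6%, 32.0%, 25.8% and 0.705%.

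**Figure D3:**
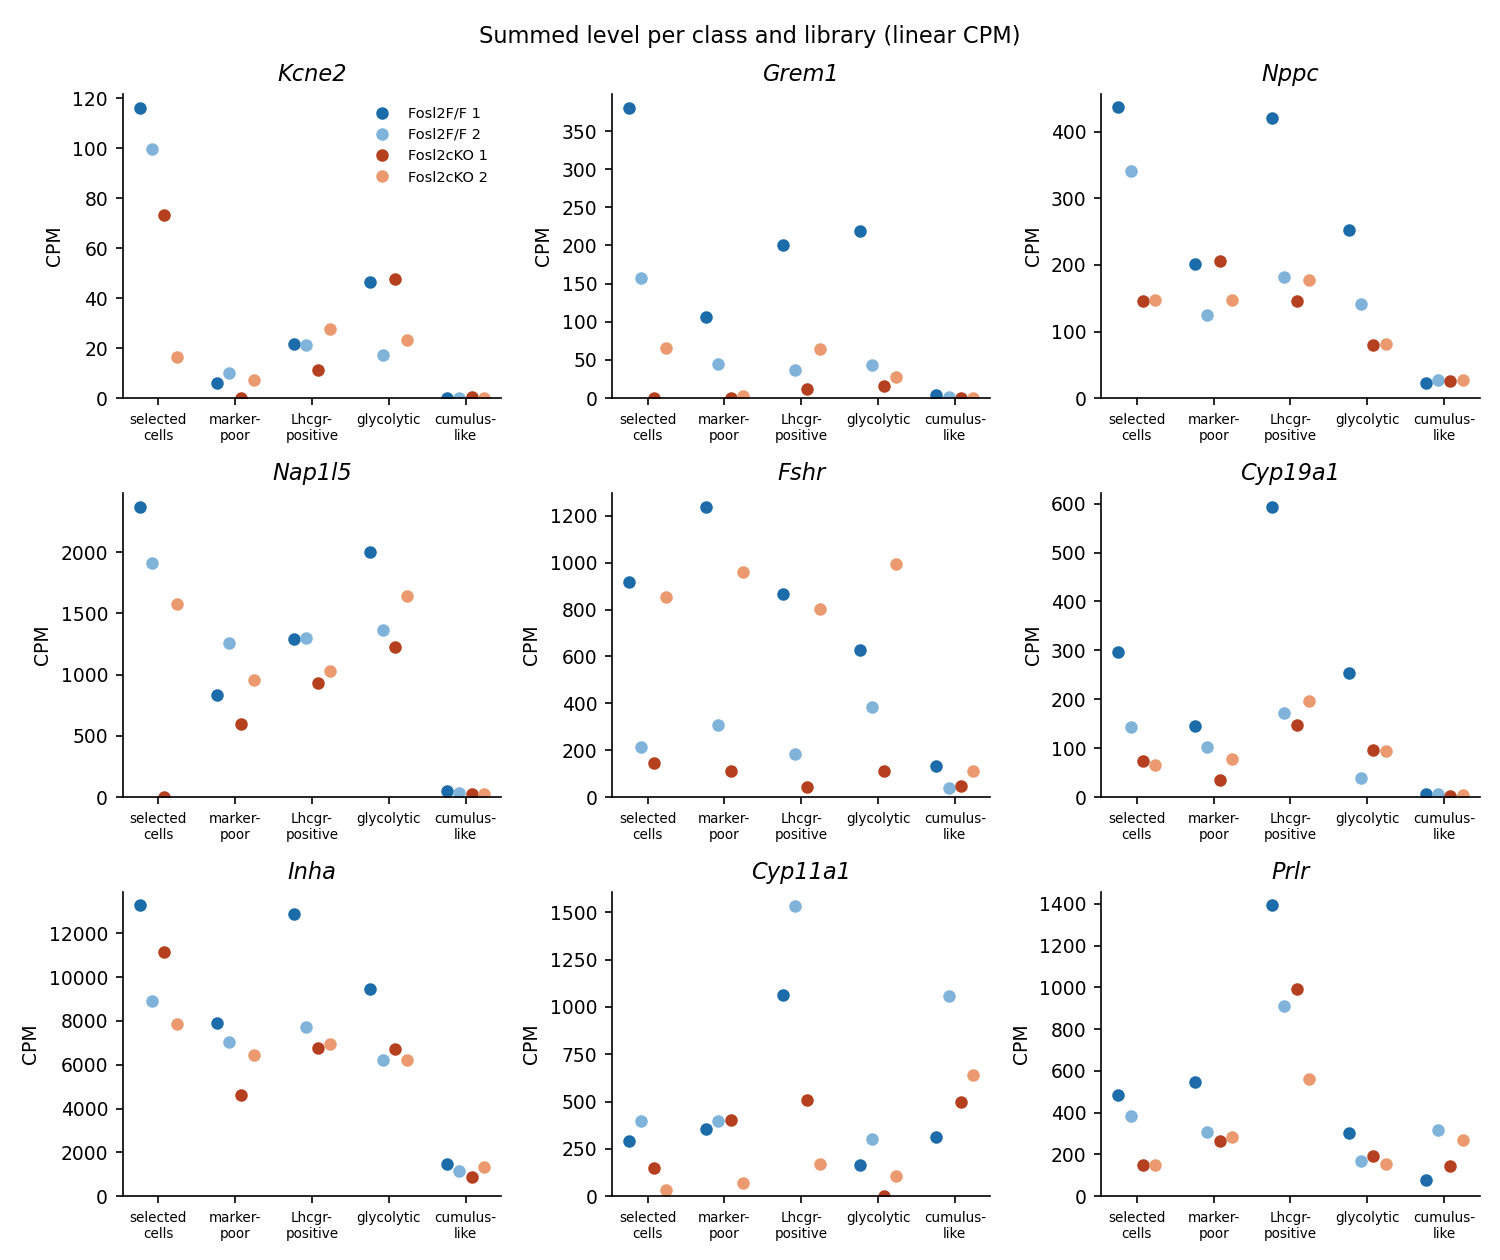
Level in CPM (y axis, linear, each panel on its own scale) of 9 genes in the selected cells and 4 other classes (x axis), 1 point per library from summed UMIs. Kcne2 and Grem1 chose the cells, Nppc of the selected cells lies near that of Lhcgr-positive GCs, and Cyp11a1 and Prlr lie below it in all 4 libraries.

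The 8 genes at least 2-fold higher than in Lhcgr-positive GCs in all 4 libraries were Ano4, Arhgap28, Nek6, Derl3, Gm11906, Rai2, Tmem116 and Fuca2. Ano4, of the anoctamin family of ion channels and scramblases, stood at 198, 456, 293 and 1233 CPM against 62.6, 80.0, 124 and 262. Arhgap28, a GTPase-activating protein, stood at 882, 1083, 806 and 1529 CPM against 332, 441, 372 and 584. Nek6, a mitotic kinase, stood at 178, 85.5, 73.3 and 148 CPM against 80.5, 33.8, 11.3 and 70.7. Derl3, which acts in the removal of misfolded proteins from the endoplasmic reticulum, stood at 44.4, 71.3, 147 and 49.3 CPM against 14.2, 23.1, 11.3 and 22. Being higher in every library is what placed them in the count, and Gm11906, Rai2, Tmem116 and Fuca2 rested on 8 to 13 UMIs each over all 63 cells. The single cell of Fosl2cKO 1 held 1 UMI of Nek6, 2 of Derl3, 4 of Ano4 and 11 of Arhgap28. For Ano4, 36 of the 191 UMIs lay in 1 cell.

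Other genes of the BMP and activin system, to which Grem1 and Inhba belong, did not move as a group. Of 21 genes at 20 CPM outside the rule, 6 were higher and 9 lower in both Fosl2F/F libraries, with a median log2 ratio of -0.09, beside 2098 higher and 2092 lower of all 7586 genes and a median of 0.07. The ligand Bmp3 was the one gene at least 2-fold higher in both, at 84.0, 57.0, 0 and 32.9 CPM against 38.5, 23.1, 0 and 31.3. The ligand Bmp6 stood at 34.6, 71.3, 73.3 and 0 CPM against 18.1, 16, 0 and 6.95. The activin receptor Acvr2a was the one gene at least 2-fold lower in both, at 22.2, 28.5, 0 and 49.3 CPM against 48.0, 94.2, 78.9 and 54.5. The BMP target Id2 was lower in all 4, at 222, 99.8, 73.3 and 65.8 CPM against 412, 281, 406 and 181. Inhbb, the other activin beta subunit, stood at 1393, 941, 2272 and 1546 CPM against 838, 677, 383 and 1325, and Fst, the activin-binding follistatin, at 472, 356, 586 and 592 against 521, 373, 270 and 409. Inhbb was thus higher in every library, while Fst was higher only in the Fosl2cKO libraries.

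Channel genes related to Kcne2 were mixed. Of 6 genes of the channel list at 20 CPM, 2 were higher and 3 lower in both Fosl2F/F libraries, with a median log2 ratio of -0.42, beside 2098 higher and 2092 lower of all 7586 genes and a median of 0.07. Kcnq5, a pore subunit of voltage-gated potassium channels, stood at 615, 413, 0 and 1398 CPM against 311, 210, 180 and 773. Kcnd2, a pore subunit of A-type channels, stood at 7.41, 71.3, 73.3 and 82.2 CPM against 65.7, 229, 22.5 and 54.5, lower in the Fosl2F/F libraries and higher in the Fosl2cKO libraries. The calcium-activated channel Kcnma1 lay between 207 and 329 CPM in both classes.

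Against cumulus-like cells the selected cells differed at many more genes. Of 7984 genes, 106 were at least 2-fold higher (1.33%) and 360 at least 2-fold lower (4.51%) in all 4 libraries. In the Fosl2F/F libraries alone, 367 of 7843 genes were higher (4.68%) and 629 lower (8.02%). There, 11 of 17 genes of the FSH and estrogen programme were at least 2-fold higher in both and 0 were 2-fold lower, with a median log2 ratio of 2.68 beside 0.04 over all genes. Cyp19a1 stood at 296, 143, 73.3 and 65.8 CPM against 5.32, 6.77, 3.09 and 3.51. Inhbb stood at 1393, 941, 2272 and 1546 CPM against 42.8, 52.1, 64.1 and 56.1. Among the 12 largest ratios were also Robo2, a receptor for Slit guidance proteins, at 504, 884, 660 and 411 CPM against 11.7, 29.4, 9.48 and 31.6, and Csrp2, a LIM domain protein, at 1296, 1354, 806 and 1069 against 79.8, 80.0, 74.4 and 41.6. Pparg, a nuclear receptor of lipid metabolism, stood at 341, 285, 440 and 576 CPM against 22.6, 25.9, 14.8 and 26.2.

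Genes lower than in cumulus-like cells included ones that the cumulus gate did not use. Wt1, a transcription factor of early GCs, stood at 19.8, 85.5, 73.3 and 32.9 CPM against 500, 677, 517 and 772. Wnt4, a signalling ligand, had 7.41 CPM in Fosl2F/F 1 and no UMI in the other 3, against 80.9, 104, 181 and 107. Amh, anti-Müllerian hormone, which small growing follicles make, stood at 19.8, 71.3, 147 and 82.2 CPM against 282, 171, 260 and 220. It was lower in all 4 libraries, and after thinning it was detected in 11.1% of the selected cells, 42.6% of cumulus-like cells and 3.0% of Lhcgr-positive GCs, pooled over libraries that the classes draw on unequally. In macrophages, which should lack it, the pooled share was 5.46%, within the 95% Wilson interval of 5.19% to 22.2% of the selected cells. By library, Amh was detected in 3 of 39, 1 of 10, 1 of 1 and 1 of 4 selected cells. In macrophages the shares were 2.10%, 6.35%, 5.31% and 6.01%, lower in each library. With so few cells, whether Amh in the selected cells exceeds background was not tested.

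Further lists were counted against Lhcgr-positive GCs in the Fosl2F/F libraries, where 2098 of all 7586 genes were higher in both and 2092 lower, with a median log2 ratio of 0.07. Of 12 granulosa identity genes, 3 were higher and 5 lower in both, with a median log2 ratio of 0.02. Among them, Foxl2, the factor that keeps GC fate, stood at 88.9, 42.8, 147 and 115 CPM against 108, 55.1, 45.1 and 89.2, and Nr5a2, the receptor LRH-1, at 1627, 1411, 2272 and 2713 CPM against 2628, 1502, 1014 and 2233. Of 10 insulin-like growth factor genes, 3 were higher and 4 lower, and Igf1, the growth factor itself, stood at 138, 171, 220 and 65.8 CPM against 50.7, 80.0, 56.3 and 104, higher in 3 of 4 libraries. Of 8 AP-1 genes, 1 was higher and 4 were lower, with a median of -0.35 and none of them 2-fold apart in both. Fos, a dimer partner of the Jun proteins, stood at 1975, 2109, 293 and 1266 CPM against 2289, 2069, 1566 and 1446. Of 5 small-follicle genes, 4 were higher and 1 lower (median 0.83), among them Bex4 at 1788, 926, 586 and 904 CPM against 1214, 736, 665 and 854, which was higher in 3 of 4 libraries. Of 5 natriuretic peptide genes, 1 was higher and 3 were lower (median -0.77), and of 10 immediate early and heat shock genes, 1 was higher and 3 were lower (median -0.07). Of 4 mitosis genes, 3 were higher and 0 lower (median 0.88), and of 3 luteal genes, 2 were higher and 1 lower (median 0.88). Of 5 cumulus genes, 1 was higher and 0 lower (median 1.55), and of 5 atretic genes, 2 were higher and 2 lower (median 0.89). Between them these 6 lists held 1 gene at least 2-fold apart in both libraries, the prostaglandin F receptor gene Ptgfr of the luteal list, which was lower, at 17.3, 0, 0 and 0 CPM against 39.1, 117, 56.3 and 0.

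Glycolytic and marker-poor GCs differed from the selected cells at fewer genes than cumulus-like cells did. Against glycolytic GCs, 5 of 7794 genes were at least 2-fold higher (0.0642%) and 40 lower (0.513%) in all 4 libraries, and in the Fosl2F/F libraries alone 86 of 7598 were higher (1.13%) and 125 lower (1.65%). Ldha, which makes lactate, was lower in all 4, at 704, 470, 220 and 263 CPM against 1666, 1738, 2104 and 943, and the gate of that class had used other genes of the same metabolism. Against marker-poor GCs, 4 of 7745 genes were higher (0.0516%) and 61 lower (0.788%), and in the Fosl2F/F libraries alone 76 of 7620 were higher (0.997%) and 175 lower (2.30%). Of 8 theca and stroma genes at 20 CPM there, 6 were at least 2-fold lower in the selected cells of both Fosl2F/F libraries (median -1.60, beside 0.07 over all 7620 genes). Their list summed to 360, 656, 1664 and 130 CPM in marker-poor GCs.

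Fosl2 itself was detected in 35 of the 63 cells. It stood at 138, 143, 73.3 and 82.2 CPM in the selected cells, from 56, 10, 1 and 5 UMIs, and at 271, 238, 225 and 169 CPM in Lhcgr-positive GCs. The Fosl2cKO values lay below the Fosl2F/F values in both classes, but Fosl2 had too few UMIs in the selected cells to enter the fit. The libraries count the 3′ ends of transcripts, and whether the counted end of Fosl2 lies within the deleted part is not given in the sources used here. In the wider set its log2 change was -0.59, with an adjusted p of 0.848 by edgeR. Plb1, whose gene begins downstream of Fosl2 on chromosome 5 (chr5:32232708-32366520, against chr5:32135801-32157842 for Fosl2), had 0, 0, 0 and 214 CPM in the selected cells. Its 13 UMIs came from all 4 cells of Fosl2cKO 2, while the cell of Fosl2cKO 1 had none. In Lhcgr-positive GCs, Plb1 stood at 0.167, 0, 1476 and 850 CPM, so the 2 conditions did not overlap there, with 7 and 55 cells in Fosl2cKO.

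Between the conditions, few genes of the selected cells passed the test. In edgeR's quasi-likelihood test on UMIs summed per library, a gene was called when its Benjamini-Hochberg adjusted p was under 0.1 and its log2 change over 0.25 in size. By this rule 3 of 1357 genes were called (0.221%), 2 higher (0.147%) and 1 lower (0.0737%) in Fosl2cKO, and 107 had an unadjusted p under 0.05. Plxdc2, a membrane protein, stood at 731 and 413 CPM in Fosl2F/F and 5497 and 1348 CPM in Fosl2cKO. Its log2 change was 2.41 (SE 0.47, adjusted p 0.0224), and without Fosl2cKO 1 it was 1.15. Ybx1, an RNA-binding protein, stood at 242 and 299 CPM against 513 and 1266. Its log2 change was 1.91 (SE 0.43, adjusted p 0.0834), and without Fosl2cKO 2 it was 0.51. Chst11, a chondroitin sulfotransferase, stood at 642 and 926 CPM against 147 and 98.7, from 2 and 6 UMIs in the Fosl2cKO cells. Its log2 change was -2.79 (SE 0.55, adjusted p 0.0224), and without Fosl2F/F 2 it was -2.66. With 1 library left out, 1 group has a single library, so only the change is given. Values of Fosl2cKO rest on 5 cells, none of which held both Kcne2 and Grem1. None of the 3 genes was called in the wider set, where the adjusted p by edgeR was 0.991 for Plxdc2, 0.425 for Ybx1 and 0.989 for Chst11.

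The other genes with the smallest p did not pass. Htra1, a secreted protease, stood at 269 and 271 CPM in Fosl2F/F and 660 and 1003 CPM in Fosl2cKO, with a log2 change of 1.71 and an adjusted p of 0.117 by edgeR. Eif3f had a log2 change of 2.08 and Jund of 1.87, both at an adjusted p of 0.179, and Tut4 of 1.34 at 0.350. Zeb2, Cyp11a1 and Ano4 had log2 changes of -1.70, -2.54 and 1.60, all at an adjusted p of 0.360. No gene of the fixed lists was called. Nppc had a log2 change of -1.42 (adjusted p 0.430), Nap1l5 of -1.09 (0.620), Prlr of -1.58 (0.360) and Inha of -0.24 (0.897). Over the 14 genes of the FSH and estrogen programme that entered the fit, the median log2 change was 0.19, and over 5 genes of the LH list it was 0.31, beside 0.01 over all genes. It was -0.90 over 5 AP-1 genes and -0.72 over 3 immediate early and heat shock genes. The single cell of Fosl2cKO 1 stood apart in both lists, at 1319 CPM over 10 AP-1 genes against 5393 to 6713 CPM in the other libraries, and at 220 CPM over 10 immediate early and heat shock genes, on 3 UMIs, against 2253 to 3207 CPM.

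The wider set, which has 67 and 81 Fosl2cKO cells, tested 10503 genes, of which 18 were called by edgeR (0.171%), 14 higher (0.133%) and 4 lower (0.0381%). Htra1 was among them, at 251 and 310 CPM in Fosl2F/F and 686 and 931 CPM in Fosl2cKO, with a log2 change of 1.49 and an adjusted p of 0.0453. So was Eif3f, a subunit of a translation initiation factor, with a log2 change of 1.63 and an adjusted p of 0.0616. Plb1 stood at 0 and 0.807 CPM against 442 and 182 CPM, from 0, 1, 785 and 361 UMIs, and no fold is given for it. Igfbp2, which binds insulin-like growth factors, stood at 7.76 and 11.3 CPM against 42.2 and 45.3 (log2 change 2.25). Cd74, an antigen-presentation gene of macrophages, stood at 34.5 and 63.8 CPM against 7.88 and 9.06 (log2 change -2.51). Grem1 and Zpld1 were also called lower there, but the rule used them. Nppc stood at 234 and 173 CPM against 145 and 88.1 (adjusted p 0.461) and Cyp19a1 at 191 and 130 CPM against 86.1 and 69.5 (adjusted p 0.212), below the Fosl2F/F libraries in both cases without passing the test.

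Whether the condition acted differently in the selected cells and in Lhcgr-positive GCs was tested as an interaction, with the library as a block. Of 5968 genes, 2 were called (0.0335%), both with a lower log2 change from Fosl2F/F to Fosl2cKO in the selected cells, and 256 had an unadjusted p under 0.05. Slc38a5, an amino acid transporter, stood at 240 and 171 CPM in Fosl2F/F and 0 and 49.3 CPM in Fosl2cKO in the selected cells, from 97, 12, 0 and 3 UMIs. In Lhcgr-positive GCs Slc38a5 stood at 59.4 and 33.8 CPM and 259 and 86.9 CPM, which is the opposite order. The Fosl2cKO values of that class rest on 7 and 55 cells, for this gene and for Chst11. The difference of the log2 changes was -3.84 (SE 0.80, adjusted p 0.00433 by edgeR), and without Fosl2cKO 1, which leaves 1 library in that group, it was -2.98. Without Fosl2cKO 2 the only Fosl2cKO cell left has no UMI of Slc38a5, so no value is given. Chst11 stood at 470 and 482 CPM against 732 and 424 CPM in Lhcgr-positive GCs, and the difference of its log2 changes was -3.00 (SE 0.62, adjusted p 0.00433). Without Fosl2F/F 1 or Fosl2F/F 2 neither gene passed, at -4.02 and -3.92 for Slc38a5 and -3.23 and -2.94 for Chst11.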

How the data were processed

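Ovary cells were profiled with the 10x Chromium 3′ v3 kit. The deposited values are whole-number UMI counts per gene and barcode, made by the authors with Cell Ranger (version 3.1.0 in the methods, 7.1.0 in the matrix headers) from uniquely mapped reads on GRCm38. Seurat 4.1.0 is named in the submitters' processing notes. Whether the deposited counts had been corrected for free RNA with CellBender, which the methods describe, is not given in the sources used here. Doublet removal and SCTransform in the study came after these matrices.

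Cells with at least 500 genes, more than 1000 UMIs and under 10% mitochondrial UMIs were kept. Doublets were marked with Scrublet in scanpy 1.11.5 at an assumed 0.8% per 1000 cells and left in, except in an alternative. UMIs were summed per library and class. Conditions were compared with edgeR 4.0.16 (quasi-likelihood, TMM, filterByExpr, R 4.3.3), genes were called where the adjusted p was under 0.1 with a log2 change over 0.25, and DESeq2 1.42.0 was an alternative. Shares were compared with exact permutation tests (scipy 1.17.1). Only the edgeR test between conditions was tried on simulated sums, with a fixed spread, and the other steps were not. No column of the files was left unused.

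The cells, the gene lists and the tests were chosen with earlier results of these data known. Genes named are those of the lists, Fosl2 and Plb1, the 12 most extreme ratios of each direction against Lhcgr-positive and cumulus-like cells, and the called genes or the 10 with the smallest p. Ldha and the genes at least 2-fold apart in the Fosl2F/F libraries alone were chosen after their values were seen. Class ratios were first computed with 0.5 added to each count, which let genes without a UMI in the single Fosl2cKO 1 cell count as higher. The counts given here, set after seeing this, use unsmoothed CPM and need a UMI in the selected cells for a gene to be higher, while medians and ranks keep the added 0.5. The wider set and the restriction to Fosl2F/F libraries were also added after the data were seen. Same-numbered libraries were not treated as pairs, since the labels name no shared source. A few genes that the rule for named genes covers are not reported here.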

Additional observations from a re-analysis of the deposited data

Results flagged for a closer look

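Slc38a5 and Chst11 were the 2 genes whose change between conditions differed between the selected cells and Lhcgr-positive GCs by the interaction test. The difference of log2 changes was -3.84 for Slc38a5 and -3.00 for Chst11, each at an adjusted p of 0.00433 by edgeR. The Fosl2cKO side of the selected cells held 0 and 3 UMIs of Slc38a5 and 2 and 6 UMIs of Chst11, in 1 and 4 cells. That of Lhcgr-positive GCs held 7 and 55 cells. In the wider set, the log2 change of Slc38a5 was -0.16 (adjusted p 0.991) and that of Chst11 was -0.36 (adjusted p 0.989). For Slc38a5 the difference was -2.98 without Fosl2cKO 1, with 1 library left in that group. No value is given without Fosl2cKO 2, which leaves no UMI on the Fosl2cKO side. No cause was tested.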

How the results depend on the processing

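The selected cells number 1 and 4 in the Fosl2cKO libraries, which limits every comparison of conditions. The count of 3 genes called between conditions became 0 with the replicate block, 1 without doublets, 0 with Inhba at 20 or more per 10000 UMIs, 1 with DESeq2 and 18 in the wider set, and ranged from 0 (without Fosl2F/F 2) to 64 (without Fosl2cKO 2) when 1 library was left out, with 19 without Fosl2cKO 1. The fit with at least 3 markers could not be made, since a library then held no cell. Without a gene filter 3 genes were called, of which only Chst11 had been called with it. The labels name no shared source for same-numbered libraries. The deviations of same-numbered libraries correlated at 0.0562 over 1357 genes, which cannot decide on pairing, since Fosl2cKO 1 holds a single cell. In the wider set this correlation was -0.139, and 73 genes were called with the replicate block, 249 with the crossed block, 44 with DESeq2 and 230 without a gene filter, against 18. The 2 interaction calls ranged from 0 (without either Fosl2F/F library) to 51 (without Fosl2cKO 2). For the shares, the rule was applied anew to counts thinned to 3000 UMIs, and 133, 11, 9 and 7 cells met it. The difference in the share of Inhba-high cells was then -1.35 points. The shares were 4.48%, 0.449%, 1.36% and 0.863%, with both Fosl2cKO libraries between the Fosl2F/F libraries. On unthinned counts with 1 library left out, the difference was -1.07 to -0.149 points. That in the share of all cells was -0.780 points after thinning, -2.29 in the wider set, and -0.479 to -0.0198 with 1 library left out. In the thinned counts and in the wider set, the Fosl2cKO shares of all cells also lay between those of the Fosl2F/F libraries. The 38 genes 2-fold apart from Lhcgr-positive GCs became 252 in the Fosl2F/F libraries alone and 194 after thinning the cells as first gated. They became 255 in the wider set (209 higher and 46 lower) and 58 with Inhba at 5 or more. The balance of directions moved. Against Lhcgr-positive GCs it was 8 higher and 30 lower over all 4 libraries, where a library without a UMI could count only as lower. In the Fosl2F/F libraries alone, where the same limit held, it was 108 and 144. Between conditions, the 2 higher and 1 lower genes turned to mostly lower ones without Fosl2cKO 2. In the wider set, the 14 higher and 4 lower genes turned to mostly lower ones without Fosl2F/F 1 and without Fosl2cKO 2. They did not turn without Fosl2F/F 2 or without Fosl2cKO 1. The cause of these changes was not tested.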
